A study of Mus musculus with 12 samples.

Results

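The collagen genes were examined in RNA-Seq libraries from proximal ileal epithelium of mice given TCDD, in full 2,3,7,8-tetrachlorodibenzo-p-dioxin, a dioxin that binds the aryl hydrocarbon receptor. Members were the protein-coding genes whose symbol in the GENCODE M21 annotation is Col, digits, the letter a and digits, with at least 10 raw counts summed over the 12 libraries. Of 44 such genes in the annotation, all among the 46078 genes counted, 39 met the minimum: 10 fibrillar, 8 basement membrane and 21 other collagens. Left out were Col2a1 with 1 count, Col10a1 and Col19a1 with 2 each, Col9a1 with 4 and Col6a6 with 5. All animals were male C57BL/6 mice, 28 days old at the first dose and 56 days old at the end, gavaged every 4 days for 28 days (7 doses in all) with sesame oil or with sesame oil carrying 3, 10 or 30 µg/kg TCDD. There were 3 libraries per group, described by the submitters as biological replicates, and replicate numbers only name a library. RNA came from scrapings, so cells from beneath the epithelium can be present, and in bulk RNA fewer cells of a type and less RNA per cell cannot be told apart.

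Collagens are triple-helical proteins of the extracellular matrix. Fibrillar collagens such as types I, III and V form the fibrils that give connective tissue its tensile strength, type IV builds the sheet-like network of basement membranes, on which the epithelium sits, and types XV and XVIII are basement membrane-zone proteins. Others form beaded filaments (type VI), decorate fibrils (types XII and XIV), anchor the basement membrane to the underlying stroma (type VII) or span the cell membrane (types XIII, XVII, XXIII and XXV). In the gut they are made mainly by fibroblasts, smooth muscle, pericytes and endothelium of the lamina propria and muscle layers.

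The 250 bases upstream of the RefSeq start are shown for Col3a1, Col5a1 and Col6a3, which varied together across the libraries. Col15a1 is also shown, which shared their lowest pair of libraries but was highest in 30 µg/kg replicate 3. The comparatively even Col7a1 is given for contrast. Sequences are RefSeq on build GRCm38.p6, written 5′ to 3′ on the gene's strand. Col3a1 lies at chr1:45311288-45311537 (+), Col5a1 at chr2:27886175-27886424 (+), Col15a1 at chr4:47207762-47208011 (+), Col6a3 at chr1:90843972-90844221 (-) and Col7a1 at chr9:108953336-108953585 (+). Capitals mark, on either strand, the core of the dioxin response element (GCGTG or CACGC), the CCAAT box (CCAAT or ATTGG) and the TATA box (TATAAA or TTTATA).
Col3a1: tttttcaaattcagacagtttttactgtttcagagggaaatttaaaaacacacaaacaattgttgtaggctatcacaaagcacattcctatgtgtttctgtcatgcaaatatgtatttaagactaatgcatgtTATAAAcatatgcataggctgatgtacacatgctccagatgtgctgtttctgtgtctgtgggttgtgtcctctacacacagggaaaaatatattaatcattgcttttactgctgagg
Col5a1: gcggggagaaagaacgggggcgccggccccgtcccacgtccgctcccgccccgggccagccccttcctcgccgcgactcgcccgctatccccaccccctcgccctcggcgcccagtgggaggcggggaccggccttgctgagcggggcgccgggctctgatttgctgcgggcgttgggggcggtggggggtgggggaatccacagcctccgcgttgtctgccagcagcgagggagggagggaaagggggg
Col15a1: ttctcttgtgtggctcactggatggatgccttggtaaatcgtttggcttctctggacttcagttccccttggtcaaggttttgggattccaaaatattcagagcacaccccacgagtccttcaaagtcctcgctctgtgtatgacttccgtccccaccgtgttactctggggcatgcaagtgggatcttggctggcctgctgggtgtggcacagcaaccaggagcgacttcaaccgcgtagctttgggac
Col6a3: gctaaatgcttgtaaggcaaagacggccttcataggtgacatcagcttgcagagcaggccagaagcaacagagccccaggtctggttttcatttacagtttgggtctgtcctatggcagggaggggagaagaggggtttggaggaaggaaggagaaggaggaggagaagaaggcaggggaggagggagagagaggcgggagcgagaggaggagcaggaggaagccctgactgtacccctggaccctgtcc
Col7a1: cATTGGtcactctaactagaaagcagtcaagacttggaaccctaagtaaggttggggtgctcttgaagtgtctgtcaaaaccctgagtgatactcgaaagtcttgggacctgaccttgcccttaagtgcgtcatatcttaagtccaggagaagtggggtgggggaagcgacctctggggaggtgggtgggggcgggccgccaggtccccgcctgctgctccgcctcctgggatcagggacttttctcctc
The windows differed widely in composition, from 35.2% G and C in Col3a1 to 76.4% in Col5a1, with 53.6% in Col15a1, 57.2% in Col6a3 and 56.4% in Col7a1. Col3a1 held TATAAA 117 bases before the start and Col7a1 held ATTGG 249 bases before it. The other 3 windows held none of these letters. RefSeq windows were found for 31 of the 39 members (33 windows, some genes having more than 1), and none was found for Col1a1, Col4a3, Col5a2, Col9a3, Col12a1, Col14a1, Col22a1 and Col26a1. The dioxin response element core occurred in the windows of 7 of the 31 genes (Col4a1, Col4a2, Col5a3, Col6a2, Col11a2, Col13a1 and Col16a1) and in 28.2% of all 32851 promoter windows of the same length. A CCAAT box occurred in 12 of the 31, against 33.8% of all windows, and a TATA box in 4 of the 31, against 12.4%.

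The libraries held 11695887 to 22180274 counts assigned to genes, of which collagens made up 1539 to 7712 counts, or 0.00978% to 0.0392%. Genes are given below in CPM, the count scaled to a common library size, with sizes adjusted by the trimmed mean of M values (TMM), and levels are compared between genes in CPM per kilobase of exon (FPKM). Epithelial markers matched the tissue label, the 8 listed genes summing to 9575 to 13077 CPM. The ileal marker Fabp6, a bile acid-binding protein, was at 0 to 0.306 CPM in the 9 vehicle, 10 and 30 µg/kg libraries and at 22.9 to 38.3 CPM in the 3 µg/kg libraries, where edgeR called it higher (adjusted p = 3.91e-07). The 3 µg/kg group thus differed from vehicle in a regional marker, whose part in the collagen values was not tested. Among 4 aryl hydrocarbon receptor targets checked, 0, 3 and 4 were called higher at 3, 10 and 30 µg/kg. Each of the 3 library index numbers occurred once in each group. Circadian clock genes differed between libraries within groups, and values with a clock score in the model are given with the processing alternatives.

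Ileal scrapings contained collagen mRNAs of every class at low abundance. Per length, 11 of the 39 members averaged at least 1 FPKM over the 12 libraries. The beaded filament chain Col6a1 had the highest mean at 4.47 FPKM, followed by the type III fibril chain Col3a1 at 3.01 and the basement membrane chains Col4a1 and Col4a2 at 2.83 and 2.57. Next came Col6a4 at 2.51, the type I chain Col1a1 at 2.38, Col6a2 at 2.098, Col18a1 at 1.57, Col6a3 at 1.40, Col1a2 at 1.23 and the fibril-associated Col14a1 at 1.08. The libraries of neighbouring members in this order overlapped widely. The order also depends on merged exon length, Col6a1 having 3971 counts over 4380 bases and Col3a1 6074 counts over 9816 bases. The lowest member was Col11a1, a fibril chain of cartilage, at 0.0104 FPKM. Of the 39 members, 8 were too low for the test and are described only: Col4a4, Col8a1, Col8a2, Col9a2, Col9a3, Col11a1, Col17a1 and Col28a1. Col17a1, the hemidesmosome collagen of stratified epithelia, had 37 counts in all, and Col4a4 had 75, of which 0 to 18 fell in any library. Of the 31 tested, 9 were fibrillar, 7 basement membrane and 15 other collagens.

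**Figure D1:**
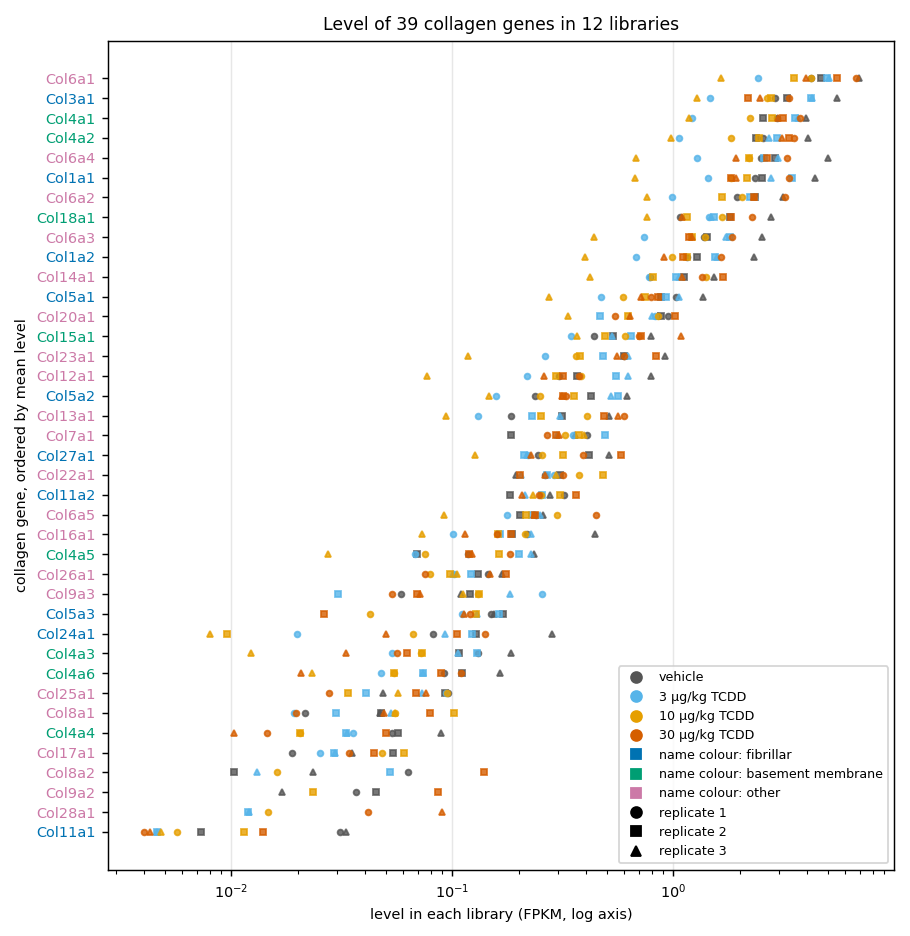
Level of each of the 39 collagen genes in each of the 12 libraries (x axis, FPKM, log scale; values of 0 are not drawn), with genes ordered by mean level, point colour for group and shape for replicate. Col6a1, at a mean of 4.47 FPKM, is at the top, and replicate 3 of the 10 µg/kg group is the leftmost point of most of the well-detected genes.

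Collagen mRNAs varied together from library to library, with wide differences inside dose groups. The summed level of the 39 members was 234, 254 and 405 CPM in the vehicle libraries. It was 139, 286 and 287 CPM at 3 µg/kg, 218, 217 and 94.3 CPM at 10 µg/kg and 310, 255 and 222 CPM at 30 µg/kg. Vehicle replicate 3 was the highest library, and replicate 1 at 3 µg/kg and replicate 3 at 10 µg/kg were the lowest, the latter 4.30-fold below vehicle replicate 3. Within the vehicle group alone the highest library exceeded the lowest 1.73-fold.

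The same libraries were extreme in all 3 classes. Replicate 3 of the 10 µg/kg group was the lowest of the 12 libraries for 24 of the 31 members tested (8 of 9 fibrillar, 5 of 7 basement membrane and 11 of 15 other), where it was the lowest for 8.91% of all 15823 genes tested. It and replicate 1 at 3 µg/kg were the lowest pair for 19 of the 31, against 2.95% of all genes, and vehicle replicate 3 was the highest for 18 of the 31, against 9.83%. The median standard deviation (SD) of log2(CPM + 0.5) within groups was 0.49 over the 31 members and 0.22 over all genes tested. A few members departed from this order. The anchoring fibril chain Col7a1, the fibril-associated Col22a1 and the fibrillar Col11a2, the last named after its values were seen, spanned 1.90 to 5.02, 1.79 to 4.43 and 1.25 to 2.49 CPM, and their lowest libraries were vehicle replicates 2, 3 and 2. At the other end Col5a3 ran from 0 to 1.16 CPM, and among members with counts in every library the spread reached 10.4-fold for Col12a1, 15.0-fold for Col4a3 and 35.2-fold for Col24a1, the latter pair at 2 and 1 counts in their lowest library.

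**Figure D2:**
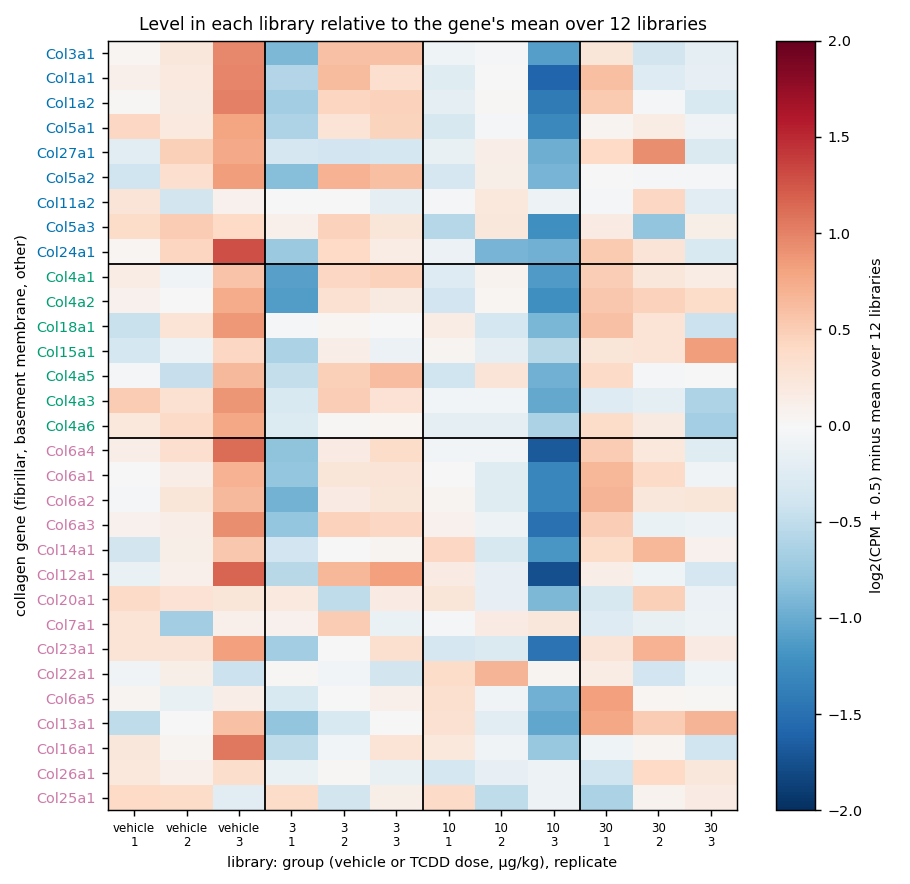
Heat map of log2(CPM + 0.5) minus the gene's mean over the 12 libraries, for the 31 collagen genes tested (rows, grouped as fibrillar, basement membrane and other) in each library (columns, by group and replicate). Red columns at vehicle replicate 3 and blue columns at 3 µg/kg replicate 1 and 10 µg/kg replicate 3 run through all 3 classes, with Col7a1, Col22a1 and Col11a2 among the exceptions.

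To ask whether TCDD changed collagen expression, each dose was compared with vehicle by edgeR's quasi-likelihood test over all 15823 genes tested, with a gene called at a Benjamini-Hochberg adjusted p under 0.05 and at least a 1.5-fold change. No collagen gene was called by edgeR at 3, 10 or 30 µg/kg, where the call rates over all genes were 0.228%, 0.613% and 3.97%. At an unadjusted p under 0.05, edgeR had 1 of 31 members lower in the 3 µg/kg group, 9 lower and 1 higher in the 10 µg/kg group and 1 lower in the 30 µg/kg group. The shares over all genes were 4.89% lower at 3 µg/kg, 7.88% lower and 7.99% higher at 10 µg/kg and 10% lower at 30 µg/kg. limma-voom called 0 members at each dose, with 0, 14 and 1 at an unadjusted p under 0.05. DESeq2 called 0 at 3 and 30 µg/kg (1 unadjusted at each) and 1 at 10 µg/kg (11 unadjusted), the transmembrane collagen Col23a1 (log2 change -1.31, SE 0.41, adjusted p = 0.0494). For unadjusted counts, here and below, the shares over all genes are edgeR's only. None is given for limma-voom and DESeq2, so their unadjusted counts cannot be set against a background.

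The fitted changes leaned below vehicle, most at 10 µg/kg. At 3 µg/kg 29 of 31 members had a negative log2 change, against 49.7% of all genes, with a median of -0.32 against 0.00 over all genes. At 10 µg/kg 28 of 31 were negative, against 51.4%, with a median of -0.75 against -0.01. At 30 µg/kg 19 of 31 were negative, against 52.2%, with a median of -0.19 against -0.02. All 3 comparisons share the vehicle libraries, so the signs are not independent of one another, and members that vary together across libraries do not count as separate observations. The 3 libraries at 10 µg/kg lay entirely below the 3 vehicle libraries for 10 of 31 members, against 11% of all genes, and the corresponding counts were 4 at 3 µg/kg (6.84% of all genes) and 4 at 30 µg/kg (12.5%). None lay entirely above vehicle at any dose, against 8.58%, 11.9% and 14.2% of all genes. With vehicle replicate 3, 3 µg/kg replicate 1 and 10 µg/kg replicate 3 all omitted, libraries chosen for their extreme collagen level, the sign turned for 17 of 20 named genes at 3 µg/kg and for 4 of 20 at each higher dose, with 0 called against vehicle. The 10 µg/kg changes also became smaller, from -0.996 to -0.28 for Col1a1, -0.80 to -0.18 for Col3a1, -0.78 to -0.20 for Col4a2, -0.82 to -0.11 for Col6a3 and -1.03 to -0.50 for Col5a1. The class medians at 10 µg/kg became -0.20, -0.13 and -0.11 for fibrillar, basement membrane and other collagens. Omitting the highest vehicle library and the lowest 3 and 10 µg/kg libraries moves these changes toward or past 0 by construction. The shifts therefore give no conclusion about what the lean rested on.

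**Figure D3:**
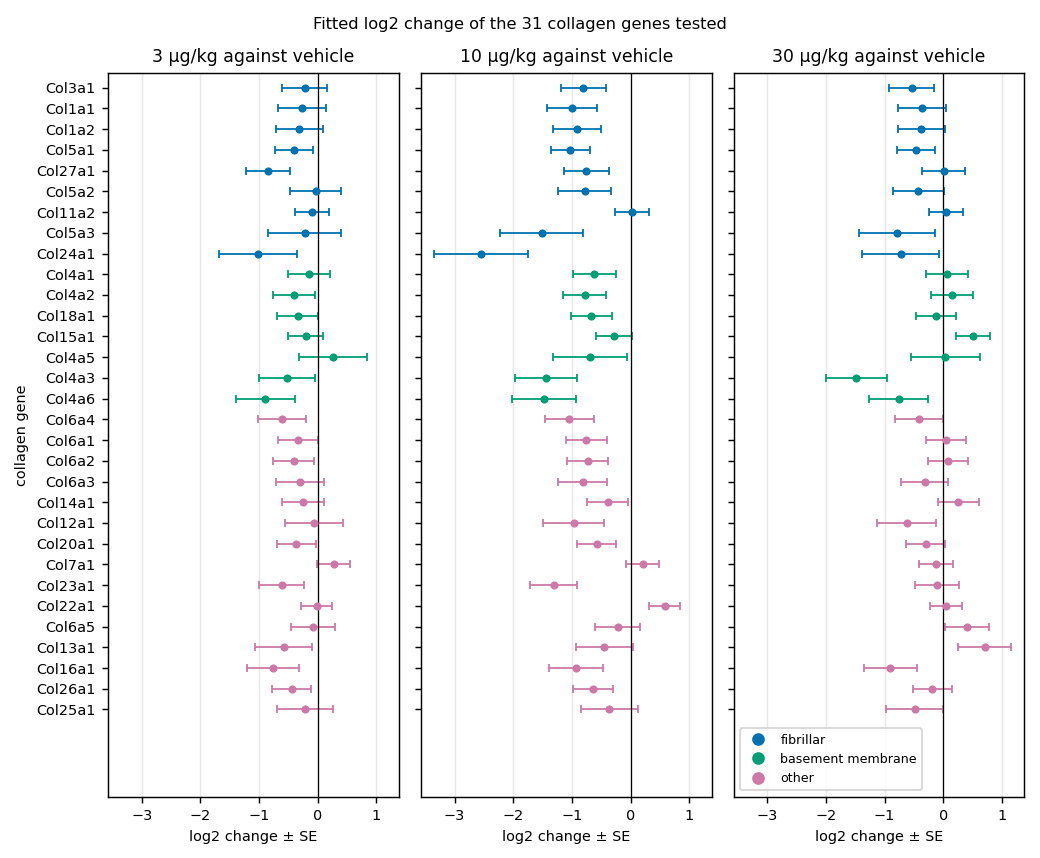
Fitted log2 change against vehicle (x axis; point, estimate; bar, ± SE) of the 31 collagen genes tested at 3, 10 and 30 µg/kg TCDD, coloured by class. Most points lie left of 0 at 10 µg/kg (28 of 31), and at 30 µg/kg the basement membrane chains Col4a1, Col4a2 and Col15a1 lie right of 0; no point passed the test.

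Among fibrillar collagens, the type I and type III chains were highest in vehicle replicate 3 and lowest at 10 µg/kg replicate 3. Col1a1 (chr11:94936224-94953042) was at 15.3, 16.4 and 28.7 CPM in vehicle, 9.36, 22.5 and 18.1 in the 3 µg/kg group, 12.0, 14.1 and 4.41 in the 10 µg/kg group and 22.0, 11.9 and 12.6 in the 30 µg/kg group. Only the 10 µg/kg libraries lay wholly below vehicle. The log2 change there was -0.996 (SE 0.42, adjusted p by edgeR = 0.278), with an unadjusted 95% interval of 0.266- to 0.944-fold, and at 30 µg/kg it was -0.37 (SE 0.41, adjusted p by edgeR = 0.653).

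Col1a2 (chr6:4504814-4541544), the partner chain of type I collagen, followed Col1a1. It was at 14.3, 15.9 and 28.9 CPM in vehicle, 8.45, 19.2 and 19.6 in the 3 µg/kg group, 12.2, 14.4 and 4.96 in the 10 µg/kg group and 20.4, 13.7 and 11.3 in the 30 µg/kg group. Every treated group overlapped the vehicle range. Col3a1 (chr1:45311538-45349706), the chain of type III collagen, was at 28.1, 32.0 and 53.7 CPM in vehicle, 14.4, 41.3 and 41.4 in the 3 µg/kg group, 25.9, 27.0 and 12.6 in the 10 µg/kg group and 32.6, 21.2 and 24.3 in the 30 µg/kg group. Its 10 µg/kg libraries lay below vehicle, and its log2 changes were -0.22 (SE 0.38), -0.80 (SE 0.39) and -0.54 (SE 0.38) at the rising doses, with adjusted p by edgeR = 0.861, 0.331 and 0.448.

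Type V chains nucleate type I fibrils and limit their width, and Col5a1 averaged 0.807 FPKM. Col5a1 (chr2:27886425-28039514) was at 8.74, 7.45 and 11.5 CPM in vehicle, 4.00, 7.88 and 8.98 in the 3 µg/kg group, 5.04, 6.31 and 2.33 in the 10 µg/kg group and 6.74, 7.198 and 6.08 in the 30 µg/kg group. Both higher doses lay below the vehicle range. The log2 change was -1.03 (SE 0.34, adjusted p by edgeR = 0.180) at 10 µg/kg and -0.47 (SE 0.33, adjusted p by edgeR = 0.434) at 30 µg/kg. Col5a2, its partner chain, ranged from 2.26 to 5.94 CPM in vehicle and from 1.41 to 5.37 in treated libraries, which overlapped.

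Col24a1, a minor fibrillar collagen, had the largest fitted decrease of any member at 3 and 10 µg/kg. It was at 0.620, 0.972 and 2.15 CPM in vehicle, 0.151, 0.934 and 0.705 in the 3 µg/kg group, 0.504, 0.0726 and 0.0612 in the 10 µg/kg group and 1.07, 0.7998 and 0.383 in the 30 µg/kg group. At 10 µg/kg the fitted log2 change came to -2.55 (SE 0.80, adjusted p by edgeR = 0.165), with 149 counts over all 12 libraries. Its span, introns included, overlaps that of an annotated antisense gene. Overlap of exons was not checked, and reads from any shared exon could not be told apart without the strand setting of the counting. Antisense genes also overlap the spans of Col4a1, Col4a2, Col4a3, Col5a1, Col5a3, Col6a4, Col12a1, Col13a1, Col14a1, Col15a1, Col18a1 and Col22a1, among others. The same limit holds for their values, including Col18a1, whose span Slc19a1 overlaps. Genes on the same strand overlap the spans of Col24a1, Col1a2 and Col3a1, among others. As a class, the 9 fibrillar members tested had median log2 changes of -0.27, -0.91 and -0.42 at the rising doses. The 3 µg/kg median was negative in 18 of the 19 alternatives. Its highest value, 0.05, came with the 3 extreme libraries omitted, which moves it toward or past 0 by construction. The 10 and 30 µg/kg medians were negative in each of the 19 alternatives but ranged from -1.20 to -0.20 and from -0.66 to -0.06. The 10 µg/kg median was -0.56 without replicate 3 of that group, -0.52 without vehicle replicate 3 and -0.20 without the 3 extreme libraries.

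Basement membrane collagens are the chains of the sheet beneath the epithelium, and the abundant ones overlapped vehicle at 30 µg/kg. Col4a1 (chr8:11198423-11312826) was at 22.1, 18.9 and 29.6 CPM in vehicle, 9.06, 26.6 and 27.3 in the 3 µg/kg group, 16.5, 20.8 and 8.76 in the 10 µg/kg group and 28.0, 23.4 and 22.1 in the 30 µg/kg group. The 30 µg/kg libraries lay within the vehicle range, with a log2 change of 0.06 (SE 0.36, adjusted p by edgeR = 0.948) and an unadjusted 95% interval of 0.610- to 1.79-fold. Col4a2 (chr8:11312805-11449287) was at 16.8, 15.7 and 26.8 CPM in vehicle, 7.02, 19.6 and 17.9 in the 3 µg/kg group, 12.0, 16.2 and 6.43 in the 10 µg/kg group and 23.2, 21.9 and 20.6 in the 30 µg/kg group. Its 30 µg/kg log2 change was 0.15 (SE 0.35, adjusted p by edgeR = 0.856), and its 10 µg/kg log2 change was -0.78 (SE 0.36, adjusted p by edgeR = 0.317).

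Col4a1 and Col4a2 form the main type IV heterotrimer and are transcribed head to head, their gene models overlapping by 22 bases. The strand setting of the counting is not given in the sources used here, so reads from that overlap could count for either or neither. Type IV gene pairs lie likewise on chromosome 1, where Col4a3 and Col4a4 are 71 bases apart, and on chromosome X, where Col4a5 and Col4a6 are 1308 bases apart.

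Col4a3, a chain of the specialised type IV network best known from kidney, was the member with the largest fitted decrease at 30 µg/kg. It was at 1.30, 1.06 and 1.84 CPM in vehicle, 0.528, 1.28 and 1.06 in the 3 µg/kg group, 0.720, 0.726 and 0.122 in the 10 µg/kg group and 0.562, 0.622 and 0.329 in the 30 µg/kg group. Libraries of both higher doses lay wholly below vehicle. The log2 change was -1.44 (SE 0.52, adjusted p by edgeR = 0.215) at 10 µg/kg and -1.48 (SE 0.52, adjusted p by edgeR = 0.116) at 30 µg/kg. Over dose rank the fitted change across the whole range was -1.63 (SE 0.47, adjusted p by edgeR = 0.0668). DESeq2 called this trend (-1.65, SE 0.51, adjusted p = 0.0250), and so did edgeR without replicate 3 at 10 µg/kg (-1.46, SE 0.37, adjusted p = 0.0449). The gene had 174 counts in all, and its span also overlaps that of an annotated antisense gene, with overlap of exons not checked.

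Col15a1 and Col18a1, multiplexins of the basement membrane zone, are given next. Col15a1 was at 2.76, 3.38 and 5.04 CPM in vehicle, 2.19, 4.09 and 3.35 in the 3 µg/kg group, 3.82, 3.12 and 2.33 in the 10 µg/kg group and 4.44, 4.53 and 6.90 in the 30 µg/kg group. Its 30 µg/kg libraries overlapped vehicle, with a log2 change of 0.51 (SE 0.29, adjusted p by edgeR = 0.339). Col18a1, the precursor of endostatin, was at 7.50, 12.7 and 19.5 CPM in vehicle, 10.2, 10.7 and 10.3 in the 3 µg/kg group, 11.7, 8.05 and 5.33 in the 10 µg/kg group and 15.9, 12.8 and 7.67 in the 30 µg/kg group. The vehicle range alone spanned all values at 3 and 30 µg/kg. Over the 7 basement membrane members tested the median log2 change was -0.34, -0.69 and 0.04 at the rising doses. The 10 µg/kg median was -0.42 without replicate 3 of that group and -0.41 without vehicle replicate 3. The 30 µg/kg median ranged from -0.20 to 0.26 over 19 alternatives. The upper end came with the 3 extreme libraries omitted, which raises it by construction.

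Type VI collagen, the beaded filament network around cells, was the most abundant of the other collagens. Col6a1 (chr10:76708792-76726168) was at 18.3, 20.3 and 30.2 CPM in vehicle, 10.6, 21.7 and 22.1 in the 3 µg/kg group, 18.3, 15.5 and 7.17 in the 10 µg/kg group and 29.2, 24.2 and 17.4 in the 30 µg/kg group. Its log2 changes were -0.33 (SE 0.34), -0.75 (SE 0.35) and 0.04 (SE 0.34), with adjusted p by edgeR = 0.749, 0.313 and 0.963, and every group overlapped vehicle. Col6a2, Col6a3 and Col6a4 had log2 changes of -0.73, -0.82 and -1.05 in the 10 µg/kg group and 0.08, -0.32 and -0.41 in the 30 µg/kg group, none with an adjusted p by edgeR under 0.254. Of these only Col6a4, at 21.3, 24.7 and 42.8 CPM in vehicle and 18.7, 18.7 and 5.76 CPM at 10 µg/kg, lay wholly below vehicle.

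Fibril-associated collagens bridge fibrils and other matrix. Col12a1 was at 4.63, 5.55 and 12.1 CPM in vehicle, 3.32, 8.41 and 9.45 in the 3 µg/kg group, 5.83, 4.50 and 1.16 in the 10 µg/kg group and 5.67, 4.799 and 3.94 in the 30 µg/kg group, overlapping vehicle at every dose. Col14a1 was at 5.47, 7.82 and 10.7 CPM in vehicle, 5.43, 7.18 and 7.46 in the 3 µg/kg group, 9.79, 5.66 and 2.94 in the 10 µg/kg group and 9.40, 11.7 and 7.67 in the 30 µg/kg group, also overlapping. Col22a1, a collagen of tissue junctions, had the largest fitted increase at 10 µg/kg. It was at 2.43, 2.82 and 1.79 CPM in vehicle and at 3.46, 4.43 and 2.69 CPM at 10 µg/kg, which overlapped, with a log2 change of 0.58 (SE 0.27, adjusted p by edgeR = 0.311).

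The transmembrane Col13a1, Col23a1 and Col25a1 had negative log2 changes at 3 µg/kg (-0.58, -0.61 and -0.22) and 10 µg/kg (-0.45, -1.31 and -0.36). At 30 µg/kg they were mixed (0.70, -0.10 and -0.49), and the anchoring Col7a1 was positive at the lower doses. Col23a1, named after its values were seen, was at 3.44, 3.43 and 5.25 CPM in vehicle, 1.51, 2.74 and 3.58 in the 3 µg/kg group, 2.09, 2.18 and 0.674 in the 10 µg/kg group and 3.42, 4.799 and 3.18 in the 30 µg/kg group. Its 10 µg/kg libraries lay below both vehicle and 30 µg/kg. At 10 µg/kg the fitted log2 change came to -1.31 (SE 0.40, adjusted p by edgeR = 0.161), the lowest adjusted p of any member against vehicle at that dose. Col13a1 had the largest fitted increase at 30 µg/kg, where it was at 2.76, 2.22 and 2.57 CPM against 0.846, 1.44 and 2.36 in vehicle (log2 change 0.70, SE 0.45, adjusted p by edgeR = 0.400), with overlap. Col7a1, which anchors the basement membrane to the stroma, was at 4.17, 1.90 and 3.68 CPM in vehicle and 2.76 to 5.02 CPM in the treated libraries, and its log2 changes of 0.27, 0.21 and -0.13 were all smaller than their SE of 0.28. Over the 15 other collagens tested the median log2 changes were -0.33, -0.64 and -0.13 at the rising doses, and the 10 µg/kg median was -0.35 without replicate 3 of that group.

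Neighbouring doses were compared next. Between 10 and 3 µg/kg edgeR called 0 of 31 members, against 0.158% of all genes, with 1 higher at an unadjusted p under 0.05 against 1.91% of all genes. limma-voom and DESeq2 also called 0, with 2 and 1 unadjusted. In this comparison 27 of 31 members had a negative log2 change, against 54% of all genes, with a median of -0.43 against -0.02. Between 30 and 10 µg/kg edgeR again called 0, against 2.77% of all genes, with 6 higher at an unadjusted p under 0.05 against 11.1% of all genes. limma-voom called 0 (7 unadjusted) and DESeq2 called 1 (7 unadjusted), again Col23a1 (log2 change 1.205, SE 0.41, adjusted p = 0.0421). In the same comparison 27 of 31 members had a positive log2 change, against 51.5% of all genes, with a median of 0.62 against 0.01. Both comparisons share the 10 µg/kg libraries, of which replicate 3 was the lowest of all for 24 of 31 members. The signs in the 2 comparisons are therefore not independent, nor are members that vary together. The 30 µg/kg libraries lay wholly above the 10 µg/kg libraries for 6 members, against 14.7% of all genes, namely Col4a1, Col4a2, Col15a1, Col6a2, Col13a1 and Col23a1, and wholly below them for 1, Col7a1, against 13.5%. With the 3 extreme libraries omitted, edgeR called Col4a2 between 30 and 10 µg/kg (log2 change 0.63, SE 0.14, adjusted p = 0.0437). With all 12 libraries it was at 0.93 (SE 0.36, adjusted p by edgeR = 0.165). The omitted libraries were chosen by their collagen level, which also narrows the spread, so no conclusion is drawn from that call.

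Over dose rank edgeR called 0 of 31 members, against 3.29% of all genes, with 2 lower at an unadjusted p under 0.05 against 9%. The fitted change over the whole dose range was negative for 22 of 31 members, against 52.5% of all genes, with a median of -0.24 against -0.02. limma-voom called 0 (2 unadjusted) and DESeq2 called 1 (2 unadjusted), Col4a3 as above. When the 4 groups were tested for a difference anywhere among them, edgeR called 0, against 6.78% of all genes, with 3 members at an unadjusted p under 0.05 against 24%. DESeq2 and limma-voom also called 0 there, with 7 and 5 unadjusted.

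The make-up of the collagen mRNA pool was described within libraries, where the scaling between libraries plays no part. Fibrillar members took 32.6%, 33.4% and 34.8% of collagen counts in vehicle and 30.2%, 26.7% and 28.4% at 30 µg/kg. At 3 µg/kg they took 31.1%, 36.0% and 34.5%, and at 10 µg/kg 29.1%, 33.5% and 30.8%. The 30 µg/kg libraries lay below all 3 vehicle libraries and overlapped those at 10 µg/kg.

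Basement membrane members took 22.5%, 21.1% and 21.4% in vehicle, 21.7%, 22.6% and 21.7% in the 3 µg/kg group, 21.02%, 23.4% and 24.8% in the 10 µg/kg group and 24.0%, 25.6% and 26.5% in the 30 µg/kg group. The 30 µg/kg libraries lay above all 3 vehicle libraries. The Wilson 95% interval of a basement membrane share was widest in the library with fewest collagen counts (22.7% to 27.0% at 10 µg/kg replicate 3), and these intervals cover counting error only. No test was made of a share over members.

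Ratios between partner chains were computed within libraries. Per length, Col1a1 stood at 1.93 ± 0.18 times Col1a2 (mean ± SD over the 12 libraries, range 1.65 to 2.23) and Col6a1 at 2.15 ± 0.19 times Col6a2, although the summed level of collagens varied 4.30-fold. Raw counts in these pairs were close, at 3220 and 3129 for type I and 3971 and 3571 for type VI. The size of each ratio thus depends on merged exon lengths (6563 and 12426 bases, 4380 and 8326 bases), and is no measure of chain proportions. Col4a1 stood at 1.07 ± 0.09 times Col4a2 in vehicle (SD, n = 3), 1.23 ± 0.11 in the 3 µg/kg group, 1.19 ± 0.04 in the 10 µg/kg group and 0.99 ± 0.07 in the 30 µg/kg group. The type V pair was less even, with Col5a1 at 1.66 to 4.38 times Col5a2 over the 12 libraries and vehicle replicate 1 the highest. Col6a3 stood at 0.214 to 0.364 times Col6a1. Between a basement membrane and a fibrillar chain, Col4a2 per length was 0.886, 0.727 and 0.739 times Col3a1 in vehicle, 0.722, 0.703 and 0.642 in the 3 µg/kg group, 0.688, 0.889 and 0.760 in the 10 µg/kg group and 1.06, 1.53 and 1.26 in the 30 µg/kg group. All 3 libraries at 30 µg/kg lay above the other 9; this pair was chosen after its values were seen, and the difference is given with no test.

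**Figure D4:**
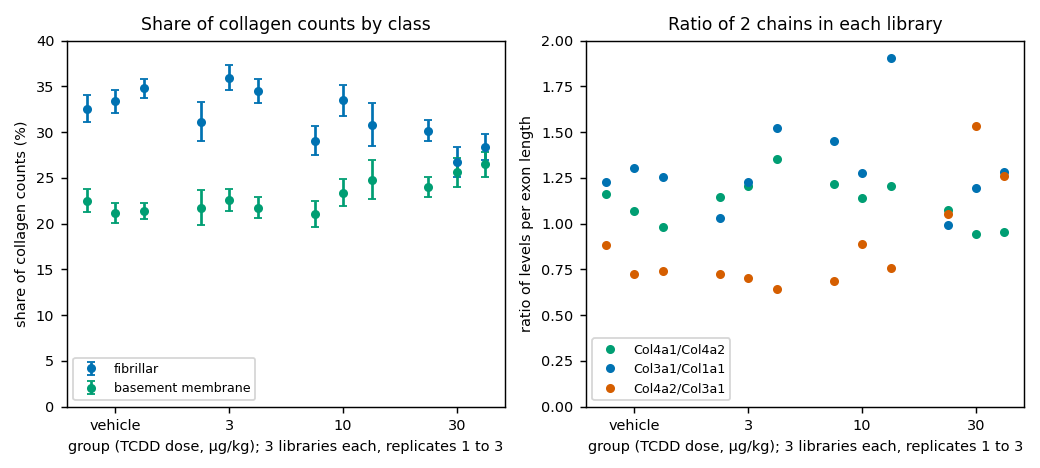
Left, share of collagen counts from fibrillar and basement membrane genes in each library (%; bars, Wilson 95% interval); right, ratios of Col4a1 to Col4a2, Col3a1 to Col1a1 and Col4a2 to Col3a1 per exon length in each library. Basement membrane shares at 30 µg/kg (24.0% to 26.5%) lie above vehicle (21.1% to 22.5%), and the Col4a2 to Col3a1 ratio lies between 1.06 and 1.53 at 30 µg/kg.

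Genes that process, bind or degrade collagen were counted by list. Of 13 tested genes for chain modification and folding, none was called against vehicle by edgeR, with 3, 5 and 1 at an unadjusted p under 0.05 at the rising doses. The 1 at 30 µg/kg, Ppib, had an adjusted p by edgeR of 0.00960 but a log2 change of 0.48, short of 1.5-fold. By the test for a difference anywhere among the 4 groups, which has no minimum fold, 3 passed: the prolyl isomerase Ppib, the collagen galactosyltransferase Colgalt1 and the export receptor Mia3. Of 9 tested for propeptide processing and crosslinking, Bmp1, the C-propeptidase of fibrillar procollagens, fell at 30 µg/kg. It was at 26.7, 23.6 and 20.4 CPM in vehicle and 8.68, 13.1 and 12.9 CPM at 30 µg/kg, with no overlap (log2 change -1.04, SE 0.21, adjusted p by edgeR = 0.0135). Adamts14, an N-propeptidase, rose between 10 and 30 µg/kg from 0.504, 0.508 and 0.306 to 1.48, 1.24 and 1.15 CPM (log2 change 1.56, SE 0.39, adjusted p by edgeR = 0.0411).

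Among 9 tested genes for degradation and its inhibitors, the gelatinase Mmp9 rose at 30 µg/kg, from 4.29, 8.19 and 6.09 to 19.7, 17.5 and 15.9 CPM (log2 change 1.51, SE 0.23, adjusted p by edgeR = 0.00217). Partners of basement membrane collagen were mixed. The proteoglycan perlecan, Hspg2, was at 48.9, 46.4 and 54.3 CPM in vehicle and at 120, 107 and 97.3 CPM at 30 µg/kg, with no overlap (log2 change 1.12, SE 0.19, adjusted p by edgeR = 0.00386). The laminin chain Lamb2 rose between 10 and 30 µg/kg, from 0.792, 1.38 and 1.41 to 3.42, 4.89 and 2.19 CPM (log2 change 1.52, SE 0.34, adjusted p by edgeR = 0.0263), and overlapped vehicle at 30 µg/kg. The other 13 of the 15 tested were called in none of the 7 comparisons. Over these 15 the median log2 change was -0.28, -0.60 and 0.11 at the rising doses. The 8 tested fibril partners, with medians of -0.47, -0.80 and -0.22, and the 8 tested collagen receptors, with medians of -0.04, -0.26 and -0.17, held no called gene in any of the 7 comparisons.

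Markers of pericytes, smooth muscle and endothelium were lowest in the same libraries as the collagens, replicate 1 at 3 µg/kg and replicate 3 at 10 µg/kg. They were above their mean in vehicle replicate 3, and fibroblast markers followed this pattern only in part. As the median over a list of log2(CPM + 0.5) relative to each gene's own mean, 10 µg/kg replicate 3 stood at -1.10, -0.96 and -1.04 for fibrillar, basement membrane and other collagens and at -1.20, -0.97 and -1.14 for 5 pericyte, 10 smooth muscle and 8 endothelial markers. Replicate 1 at 3 µg/kg stood at -0.62, -0.48 and -0.51 for the 3 collagen classes and at -0.62, -1.32 and -0.71 for those markers. Vehicle replicate 3 stood at 0.83, 0.75 and 0.58 for the collagens and at 0.52, 0.53 and 0.65 for the markers. Of these marker lists only the endothelial one was highest there. The pericyte list was higher at 30 µg/kg replicate 2 (0.64), and the smooth muscle list at 30 µg/kg replicates 1 and 2 (0.61 and 0.90). Epithelial markers were between -0.10 and 0.21 in every library. Fibroblast markers, of which 7 of 10 were tested, spanned -0.29 to 0.39, with 10 µg/kg replicate 3 the lowest at -0.29. They stood at 0.08 in replicate 1 at 3 µg/kg, where the collagens were low, and at 0.29 in vehicle replicate 3, below the 0.35 and 0.39 of the other vehicle libraries. Single genes can depart from these medians. Dcn on this list, named after its values were seen, was lowest in 10 µg/kg replicate 3 (0.735 CPM) and 3 µg/kg replicate 1 (2.19 CPM). It was highest in vehicle replicate 2 (6.43 CPM). The other listed genes are not given singly, so Dcn does not stand for the list.

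The smooth muscle list departed from the collagens in vehicle replicate 1, where it was at its highest (1.49) and the collagen classes were at 0.04 to 0.09. At 10 µg/kg 9 of 10 smooth muscle markers had a negative log2 change (median -1.76, 0 called by edgeR, 8 unadjusted), as had 7 of 7 fibroblast (median -0.60, 0 called, 4 unadjusted), 5 of 5 pericyte (median -1.15, 0 called, 2 unadjusted) and 7 of 8 endothelial markers (median -0.42, 0 called, 1 unadjusted). At 30 µg/kg 7 of 8 endothelial markers were positive (median 0.34) and 7 of 7 fibroblast markers negative (median -0.46), again with 0 called. No marker on these lists was at 0 in all libraries. Summed levels were set by few genes: Mylk gave 75.4% of the smooth muscle sum (309 to 579 CPM) and Dpep1 49.2% of the fibroblast sum (414 to 609 CPM), and the sums of pericyte and endothelial markers ran from 6.25 to 45.6 and from 18.9 to 55.4 CPM. Pancreatic acinar genes, which summed to 2.34 to 10.5 CPM, were called lower for 3 of 4 tested at 3 and at 30 µg/kg, the leukocyte marker Ptprc was called lower at 30 µg/kg, and 1 enteric glia marker was tested and not called. The part of these cell types in the collagen values was not tested.

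**Figure D5:**
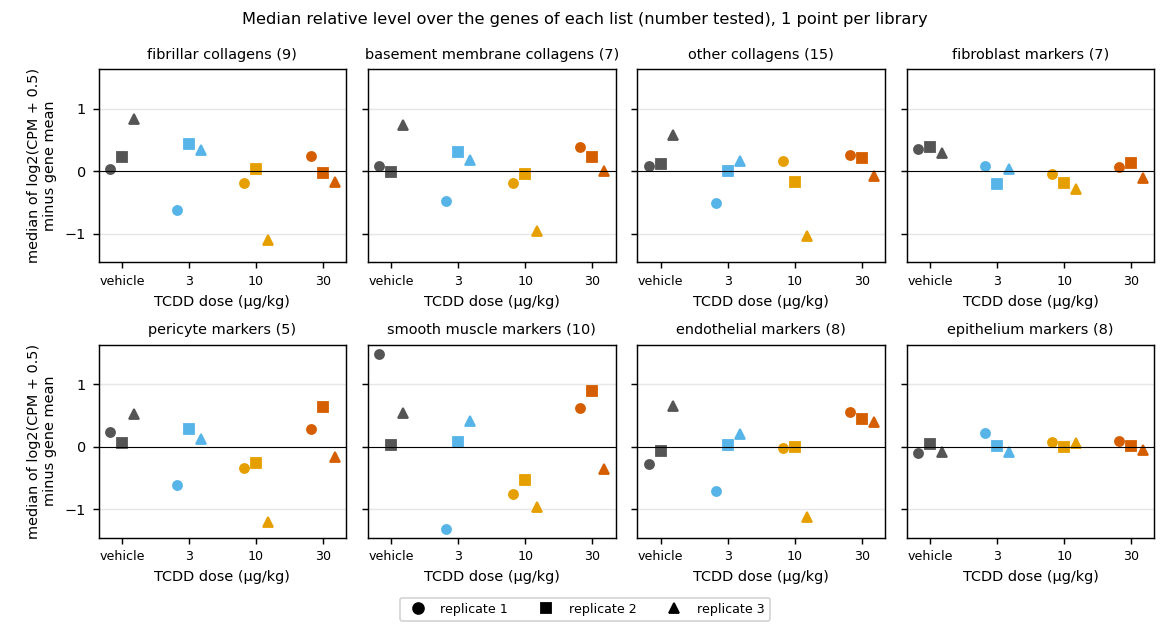
Median over the genes of each list of log2(CPM + 0.5) minus the gene's mean over 12 libraries (y axis), by group (x axis), 1 point per library, for 3 collagen classes and 5 marker lists (number of genes tested in brackets). The point of 10 µg/kg replicate 3 is near -1 in the collagen, pericyte, smooth muscle and endothelial panels, and the epithelial panel is flat, between -0.10 and 0.21.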

How the data were processed

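Total RNA from epithelial scrapings was sequenced after library preparation with the NuGen Ovation Mouse RNA-Seq kit. The deposited values are raw counts per Ensembl gene, 1 table per library, made by the authors. The submitters' processing notes name FastQC 0.11.3, Trimmomatic 0.33, TopHat2 2.1.0, SAMtools 1.2.0, HTSeq 0.6.1, DESeq and build GRCm38; strand setting and annotation release are not given in the sources used here. Counter entries that name no gene (60.3% to 64.6% of all entries per library, mostly no-feature and non-unique alignments) were left out. Gene totals were 11695887 to 22180274 counts, so 3 counts, taken as the floor, correspond to 0.135 to 0.257 CPM.

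Symbols, coordinates and merged exon lengths came from GENCODE M21 (45229 of 46078 genes matched). edgeR 4.0.16 in R 4.3.3 was run on genes kept by filterByExpr, with TMM factors and 1 quasi-likelihood model of 4 groups over 12 libraries; dose rank replaced the groups for the trend. Calls needed a Benjamini-Hochberg adjusted p under 0.05 over all genes tested and at least 1.5-fold, the study's fold minimum; the study's empirical Bayes posterior was not used. The scripts were tested on simulated counts. DESeq2 1.42.0, limma-voom (limma 3.58.1), scaling, filters, covariates and omitted libraries were tried as alternatives. Genes named were 15 preset members, the 3 highest per length in each class, any member called, and the largest rise and fall at each dose; list genes were named where called. The members and lists were chosen with earlier results of these data known. The edgeR p-values rest on a spread estimated over all 12 libraries, 3 animals per group, and shared in part between genes. An extreme library in 1 group thus also affects comparisons between other groups.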

Additional observations from a re-analysis of the deposited data

How the results depend on the processing

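No paired analysis was possible because the labels give no replicate numbers, and the numbers used here follow accession order. The library index, which occurs once per group but is not stated to pair animals, was entered as a covariate instead, with 0 members called in each of the 7 comparisons. The 7 counts of called collagen genes were 0 in edgeR and in 137 of 142 combinations of count and alternative. DESeq2 gave 1 at 10 µg/kg, 1 between 30 and 10 µg/kg (Col23a1 both times) and 1 for the trend (Col4a3). Leaving out each library in turn gave 0 to 1 for the trend, and omitting the 3 libraries of highest and lowest collagen level, chosen after seeing the data, gave 1 between 30 and 10 µg/kg (Col4a2). Over the alternatives, members at an unadjusted p under 0.05 against vehicle numbered 0 to 5, 2 to 22 and 0 to 4 at the rising doses. Between 22 and 39 members were tested, and no share over all genes is given for these counts. Signs of uncalled changes turned as follows. With the clock score in the model, Col12a1, Col14a1 and Col22a1 at 3 µg/kg were 0.15, 0.0085 and 0.0019, and with length and GC trends removed Col22a1 was 0.0249. Leaving out single libraries, the log2 changes at 3 µg/kg ranged from -0.54 to 0.0635 for Col1a1, -0.51 to 0.0519 for Col1a2, -0.44 to 0.12 for Col3a1, -0.32 to 0.33 for Col5a2, -0.39 to 0.19 for Col4a1, -0.50 to 0.0194 for Col6a3, -0.42 to 0.0562 for Col15a1, -0.64 to 0.0262 for Col18a1, -0.32 to 0.47 for Col12a1, -0.20 to 0.12 for Col22a1 and -0.0246 to 0.48 for Col7a1. At 10 µg/kg they ranged from -0.067 to 0.44 for Col7a1 and -0.46 to 0.0036 for Col15a1. At 30 µg/kg they ranged from -0.14 to 0.29 for Col6a1, -0.087 to 0.29 for Col6a2, -0.40 to 0.10 for Col7a1, -0.0736 to 0.26 for Col4a1, -0.66 to 0.0103 for Col1a2, -0.56 to 0.0162 for Col6a3, -0.40 to 0.26 for Col18a1 and -0.12 to 0.20 for Col22a1. The causes were not tested. With 3 animals per group and a median within-group SD of 0.49 over members against 0.22 over all genes, the unadjusted 95% interval of Col1a1 at 30 µg/kg spanned 0.419- to 1.43-fold. A batch that follows dose cannot be told apart from dose.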
